A study of Mus musculus with 10 samples.

Results

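Slc15a2 and Igsf23 are genes whose transcripts were close to absent in some hearts of this study and plain to measure in others. They were picked from the 15341 genes of the count table for that spread between hearts, so their levels are given as a description. Both passed the filter on low counts and were among the 12992 genes tested. RNA was sequenced from 10 heart samples of male mice, 5 in each of 2 groups, and each sample is called a heart here. Controls carried the genotype Sphk1f/-:Sphk2f/-:Mx1Cre-, and plasma S1Pless animals carried Sphk1f/-:Sphk2f/-:Mx1Cre+, so both groups had a floxed and a null allele of each sphingosine kinase gene and differed in the recombinase. The Mx1 promoter that drives the recombinase responds to interferon and works in hematopoietic cells and in part of the cells of other organs. The sources used here give no age, strain background or induction of the recombinase. Library totals ran from 16354071 to 20832566 counts. Levels are in CPM, the count as a share of the library's total, scaled by TMM factors (edgeR's correction for library composition), and 1 count was worth 0.0480 to 0.0611 CPM before that scaling. The cardiomyocyte markers Myh6, Tnnt2, Actc1, Myl2, Ryr2 and Tnni3 summed to 45190 to 54409 CPM in controls and 38192 to 48720 in S1Pless hearts. The targeted gene Sphk2 had 18 to 23.6 CPM in controls and 13.9 to 18.7 in S1Pless hearts, and Sphk1 had 0.852 to 1.78 and 0.4 to 0.987 CPM. Neither kinase gene was called by the quasi-likelihood test of edgeR after Benjamini-Hochberg adjustment (adjusted p = 0.180 and 0.168).

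Slc15a2 encodes PEPT2, a transporter in the cell membrane that uses the proton gradient to bring dipeptides and tripeptides into the cell. It is best known from the kidney tubule, where it recovers peptides from the filtrate, and from the choroid plexus, and it also carries peptide-like drugs and fragments of bacterial cell wall. Its relatives Slc15a3 and Slc15a4 work in the membranes of endosomes and lysosomes. Igsf23 encodes a membrane protein of the immunoglobulin superfamily, a large group of cell surface molecules built from immunoglobulin-like domains, many of which serve adhesion between cells.

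The sequence upstream of each gene's start is shown because the count of the gene differed so widely between hearts. RefSeq, on build GRCm38.p6, lists 1 start for Slc15a2 and 2 for Igsf23. All 3 are on the minus strand, and 250 bases before each start are printed 5′ to 3′. The counts were made on GRCm39, so these positions apply only to the sequences. The Slc15a2 stretch is chr16:36784963-36785212, and the Igsf23 stretches are chr7:19953655-19953904 for start 1 and chr7:19950744-19950993 for start 2. Capitals mark the only match to any of the 6 motifs searched.

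Slc15a2 start 1: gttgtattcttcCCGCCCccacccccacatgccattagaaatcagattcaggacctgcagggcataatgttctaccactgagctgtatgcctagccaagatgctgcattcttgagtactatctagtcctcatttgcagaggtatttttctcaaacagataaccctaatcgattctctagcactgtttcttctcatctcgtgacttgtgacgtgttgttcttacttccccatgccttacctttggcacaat
Igsf23 start 1: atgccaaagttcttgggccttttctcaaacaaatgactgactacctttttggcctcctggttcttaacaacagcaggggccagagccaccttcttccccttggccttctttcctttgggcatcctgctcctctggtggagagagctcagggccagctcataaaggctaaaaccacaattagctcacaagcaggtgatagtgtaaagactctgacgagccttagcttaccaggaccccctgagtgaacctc
Igsf23 start 2: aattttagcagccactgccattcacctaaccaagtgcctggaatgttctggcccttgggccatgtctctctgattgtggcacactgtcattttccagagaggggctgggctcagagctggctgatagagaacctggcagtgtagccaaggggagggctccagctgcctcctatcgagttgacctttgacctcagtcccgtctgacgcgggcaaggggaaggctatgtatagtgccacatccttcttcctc

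Of the 6 motifs, searched on both strands, the Slc15a2 stretch held a GC box (GGGCGG) on the opposite strand, at positions -238 to -233 from the start, and neither Igsf23 stretch held any. The GC box was found in 32.7% of the 32851 upstream stretches in the RefSeq table. The other motifs were the TATA box (TATAAA, in 12.4% of all stretches), the CCAAT box (CCAAT, 33.8%), the E box (CACGTG, 6.0%), the STAT motif (TTCNNNGAA, 7.0%) and an interferon response motif (3.0%). The stretch before Igsf23 start 1 had 1 CpG and the other 2 had 4 each, against a median of 6. A match is a description of letters in the window.

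Slc15a2 (ENSMUSG00000022899, on chromosome 16) was near 0 in 2 of 10 hearts, and both were controls. Control replicates 1 to 5 had 632, 385, 16, 347 and 12 reads. S1Pless replicates 1 to 5 had 840, 423, 288, 421 and 454 reads. Control replicates 3 and 5 therefore stood apart from the other 8 hearts, although their libraries were not the shallowest. In CPM the controls had 41.6, 20.7, 0.852, 18.9 and 0.670. The S1Pless hearts had 37.9, 21.2, 16.7, 21.2 and 21.5 CPM. The lowest of the 8 high hearts had 19.6 times the CPM of the higher of the low pair, and the whole range was 62.0-fold.

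The split of Slc15a2 ran along genotype in 7 hearts but not in 3 controls. All 5 S1Pless hearts and 3 of 5 controls were on the high side, and the low side held 2 controls and no S1Pless heart. The control mean was 16.5 ± 16.9 CPM and the S1Pless mean 23.7 ± 8.19 CPM (SD, 5 hearts in each group), and the groups overlapped. The log2 fold change was 0.54 ± 0.81 (SE), with an adjusted p of 0.763 in edgeR's quasi-likelihood test. The error is larger than the difference, so neither a difference nor its absence is shown. Without control replicate 3 or 5 the log2 fold change was 0.22 in each case, and without control replicate 1 it was 1.20. A smaller step ran through the 8 high hearts. Control replicate 1 and S1Pless replicate 1, at 41.6 and 37.9 CPM, lay at least 1.76-fold above the other 6, which had 16.7 to 21.5 CPM.

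Igsf23 (ENSMUSG00000040498, on chromosome 7) was high in 4 hearts, intermediate in 1 and low in 5. Control replicates 1 to 5 had 15, 222, 171, 161 and 212 reads. S1Pless replicates 1 to 5 had 19, 29, 18, 20 and 82 reads. The low hearts thus held control replicate 1 beside 4 of the S1Pless hearts, and none was at 0. In CPM the controls had 0.987, 11.9, 9.10, 8.77 and 11.8. The S1Pless hearts had 0.858, 1.45, 1.04, 1.01 and 3.89 CPM. Ordered by level, the widest step lay between 1.45 and 3.89 CPM (2.68-fold), and the next between 3.89 and 8.77 CPM (2.26-fold). The steps were close in size, and S1Pless replicate 5 lay between them.

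The split of Igsf23 at its widest step ran along genotype in 8 of 10 hearts. With the next step, close in size, S1Pless replicate 5 would join the other S1Pless hearts on the low side. At the widest step the high side held 4 controls and 1 S1Pless heart, and the low side 1 control and 4 S1Pless hearts. The control mean was 8.53 ± 4.47 CPM and the S1Pless mean 1.65 ± 1.27 CPM (SD, 5 hearts in each group), and the groups overlapped. The log2 fold change was -2.36 ± 0.57 (SE, adjusted p = 0.0430 in edgeR's quasi-likelihood test). Over all genes 41 of 12992 were called lower (0.316%) and 442 higher (3.40%), and Igsf23 was picked with its values known. With a heart left out, the call held in the fits lacking control replicate 1 (adjusted p = 0.00554) or S1Pless replicate 5 (0.0335). In the other 8 such fits the adjusted p ran from 0.0757 to 0.112. It also missed the threshold without the filter on low counts (adjusted p = 0.0695). The call held in edgeR with RLE factors, another scaling (adjusted p = 0.0423), and with library totals alone (0.0355). In DESeq2 the adjusted p was 0.00777.

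**Figure D1:**
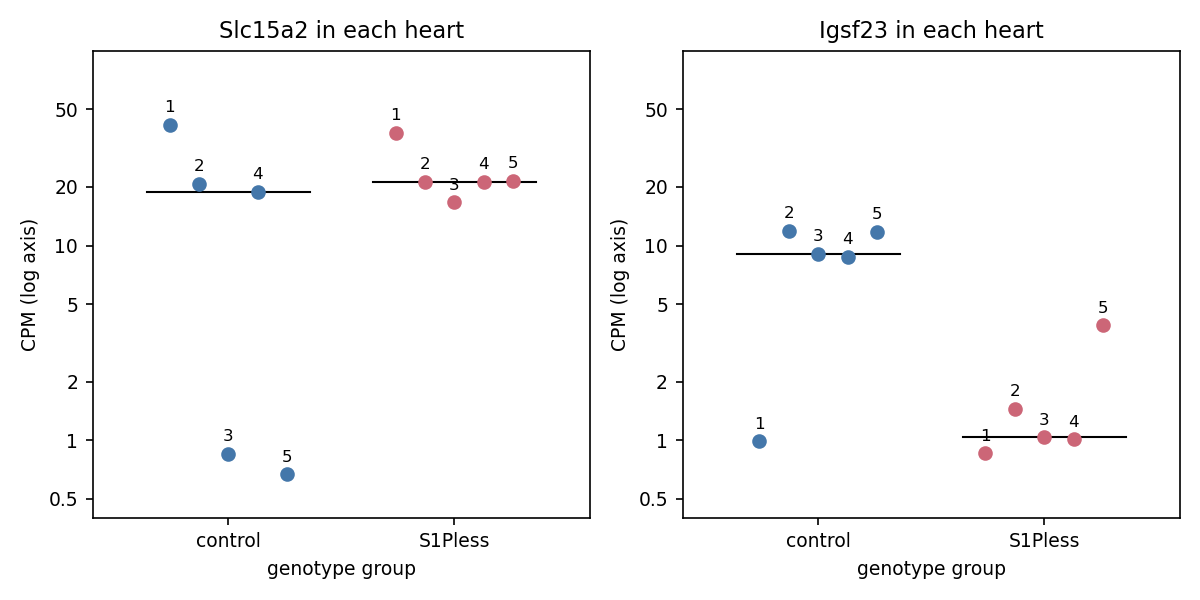
Level of Slc15a2 (left) and Igsf23 (right) in each heart, in CPM on a log axis, for 5 control (blue) and 5 S1Pless (red) hearts; numbers are replicate numbers and lines are group medians. For Slc15a2 control replicates 3 and 5 lie below 1 CPM and all other hearts at 16.7 CPM or more, while for Igsf23 control replicate 1 lies with the S1Pless hearts.

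The genes divided the hearts differently. At the widest step of each gene, no heart was low in both and 3 were high in both. Among these 3 was S1Pless replicate 5, intermediate for Igsf23 at 3.89 CPM. Of the others, 5 were high for Slc15a2 and low for Igsf23, and 2 were low for Slc15a2 and high for Igsf23. These 2, control replicates 3 and 5, had 9.10 and 11.8 CPM of Igsf23. Control replicate 1 and S1Pless replicate 1, the highest hearts for Slc15a2, had 0.987 and 0.858 CPM of Igsf23, the lowest 2 levels.

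The titles of the samples carry numbers that begin with 38 or 44, with a meaning that is not stated. Some are consecutive across the groups, as for control replicate 1 with S1Pless replicate 2, and control replicate 2 with S1Pless replicate 3. The study design describes the controls as littermates of the S1Pless animals, but which animals shared a litter is not stated. Slc15a2 had 41.6 and 21.2 CPM in the first of these pairs and 20.7 and 16.7 CPM in the other, and Igsf23 had 0.987 and 1.45 CPM and 11.9 and 1.04 CPM. Both series held a heart low in Slc15a2. Within the 38 series the 4 controls ran from 0.852 to 41.6 CPM and the 3 S1Pless hearts from 16.7 to 37.9 CPM. In the 44 series the only control had 0.670 CPM and the 2 S1Pless hearts 21.2 and 21.5 CPM. For Igsf23, the 38 series had 0.987 to 11.9 CPM in controls and 0.858 to 1.45 CPM in S1Pless hearts. Its 44 series had 11.8 CPM in the control and 1.01 and 3.89 CPM in the S1Pless hearts. With the series as a covariate Igsf23 had a log2 fold change of -2.61 and edgeR's adjusted p was 0.0522.

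Per kilobase of exon, with lengths of 7.36 kb for Slc15a2 and 2.26 kb for Igsf23 in an annotation of the older build GRCm38, Slc15a2 had 0.0911 to 5.65 CPM per kb and Igsf23 0.379 to 5.27. At their highest the genes were thus at similar levels per length. Median CPM over the 10 hearts placed Slc15a2 at percentile 52.3 of the tested genes and Igsf23 at percentile 14.1. In that annotation each gene overlaps 1 processed pseudogene, Gm8425 on the opposite strand of Slc15a2 and Gm44651 on the same strand as Igsf23, and the strand setting of the counting is not known. Transcripts of 6 other genes share a stretch of at least 100 bases at 90% identity or more with those of Slc15a2, the longest of 103 bases. For Igsf23 the number was 2 genes, with the longest stretch, of 130 bases, in Dynlt1c. With shorter stretches counted too, the numbers were 289 genes for Slc15a2 and 3 for Igsf23. Reads from such stretches could have been counted for either gene.

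A division of the hearts as wide as that of Slc15a2 was rare. For each tested gene the hearts were put in order of log2(CPM + 0.5) and the widest gap between neighbours was taken. The median gene had a widest gap of 0.20. Only 9 of 12992 genes (0.0693%) had a gap of at least 1 with 2 or more hearts on each side, and Slc15a2, at 3.67, had the widest. Igsf23 ranked sixth in this set with 1.17. Genes between them were Gm4841 (2.08), F830016B08Rik (1.61), Ubd (1.58) and Angptl4 (1.23), and after Igsf23 came Col28a1 (1.13), Zbp1 (1.04) and Csf2rb2 (1.02). The gene just outside was S100a9, at 0.996. When gaps that set only 1 heart apart were counted too, Slc15a2 ranked 2 and Igsf23 ranked 45 among all tested genes. Since the members were picked for this spread, their ranks are a description.

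At the widest gap, 2 of the 9 genes divided the hearts exactly by genotype and the others did not. Over all tested genes the groups did not overlap in 6.35%. In edgeR's test 4 of the 9 were called, Ubd, Col28a1, Igsf23 and Zbp1, beside 3.72% of all tested genes. The 9 were picked for a wide gap, so these counts are a description. Ubd, which encodes the ubiquitin-like protein FAT10, had 0.163 to 0.615 CPM in controls and 2.82 to 9.03 in S1Pless hearts. Col28a1, a collagen gene, had 0.753 to 2.10 and 5.19 to 8.66 CPM. Angptl4, which encodes an inhibitor of lipoprotein lipase, was high in control replicate 2 (17.3 CPM) and S1Pless replicate 3 (23 CPM) and had 1.25 to 7.08 CPM in the other 8. Zbp1, an interferon-induced sensor of nucleic acids, had 1.29 to 2.23 CPM in controls and 2.52 to 9.52 in S1Pless hearts. The groups thus did not overlap, although its widest gap lay among the S1Pless hearts. That gap set apart S1Pless replicates 1 and 5 (9.52 and 8.34 CPM). Both were also high in Gm4841 (25.3 and 7.40 CPM). The adjusted p of Zbp1 in edgeR was 0.0304. Dropping a single heart raised it above 0.05 for 6 of the 10 hearts (up to 0.0832). None of the other 7 genes had the division of Slc15a2 or that of Igsf23.

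**Figure D2:**
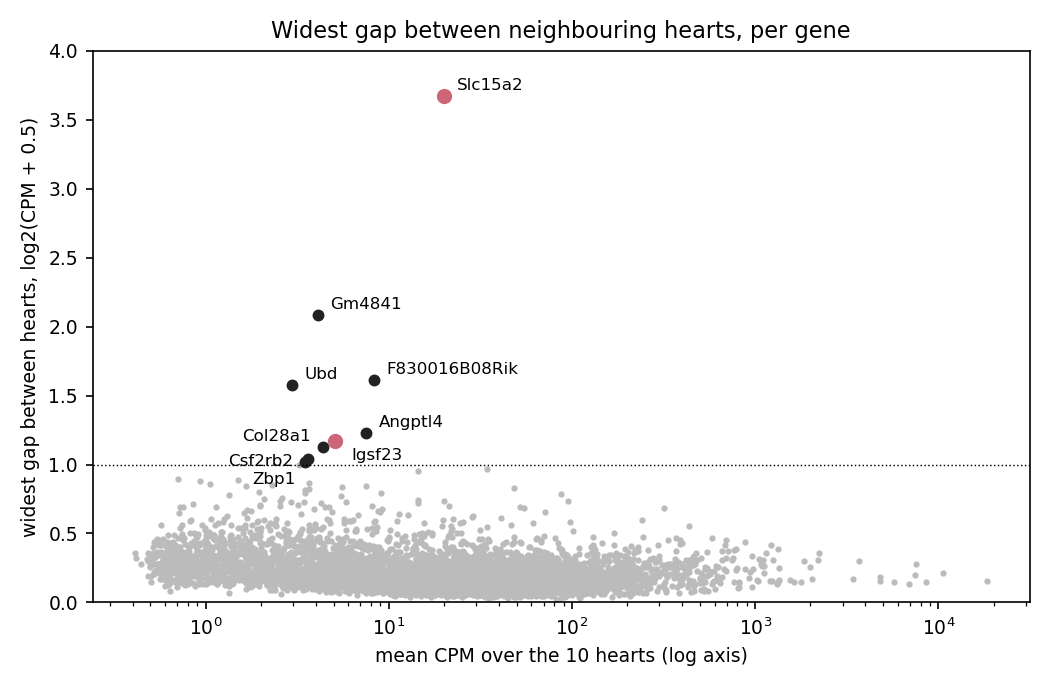
Widest gap between neighbouring hearts on log2(CPM + 0.5) against mean CPM (log axis) for tested genes with 2 or more hearts on each side of the gap; the dotted line marks a gap of 1, black points are genes above it and red points are Slc15a2 and Igsf23. Slc15a2 stands alone at 3.67, and Igsf23, at 1.17, lies close to the line.

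Few genes shared the division of Slc15a2, and those that did moved far less. Control replicates 3 and 5 were set apart at the widest gap in 78 other genes, but only Cyp1b1 and Sema3a reached a gap of 0.5. Cyp1b1, a cytochrome P450 gene on chromosome 17, had 6.71 and 7.43 CPM in control replicates 3 and 5 and 12.6 to 22.1 CPM in the other 8 hearts. Sema3a, which encodes a secreted guidance protein and lies on chromosome 5, had 1.22 and 1.28 CPM against 2.07 to 3.08. Neither passed edgeR's test between the genotypes (adjusted p = 0.247 and 0.359). Of the 78 genes, 50 were low in the same pair of hearts as Slc15a2, and 5 lay on chromosome 16, which holds 3.08% of tested genes.

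The genes that shared the division of Igsf23 with the widest gaps lay on its own chromosome. Only 6 other tested genes had control replicate 1 and S1Pless replicates 1 to 4 on one side. Of these 6, 3 were on chromosome 7, which holds 7.67% of tested genes. The 2 with a gap of at least 0.5, Pnmal2 and Zfp30, were both on chromosome 7. This division depends on the pseudocount, since with a pseudocount of 1 Igsf23 had another division. Among all 172 tested genes with a gap of at least 0.5 and 2 or more hearts a side, 15 (8.72%) were on chromosome 7. Pnmal2, a gene of the paraneoplastic antigen family, had 4.74, 14.0, 12.2, 12 and 10.9 CPM in control replicates 1 to 5. In S1Pless replicates 1 to 5 it had 4.65, 6.05, 6.09, 6.35 and 10.3 CPM. Zfp30, a zinc finger gene, had 6.97, 14.4, 17.5, 15.1 and 13.7 CPM in controls. In S1Pless hearts it had 8.03, 7.86, 8.59, 7.96 and 13.8 CPM. In both genes control replicate 1 was at the level of S1Pless replicates 1 to 4, and S1Pless replicate 5 was near the other controls, where Igsf23 was intermediate. Neither passed edgeR's test between the genotypes (log2 fold change of -0.69 ± 0.26 and -0.55 ± 0.22, adjusted p = 0.156 and 0.182).

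Pnmal2 and Zfp30 flank Igsf23 at a distance, 55 places before it and 132 places after it in the order of the table's genes along chromosome 7 (GRCm38 order). The targeted gene Sphk2 lies on the same chromosome, 329 places after Igsf23. Between Pnmal2 and Zfp30 there were 156 other tested genes, of which 4 were called higher and 0 lower in edgeR's test (2.56%, against 3.72% of all tested genes in either direction). Their median log2 fold change was -0.04, against -0.01 over all tested genes.

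**Figure D3:**
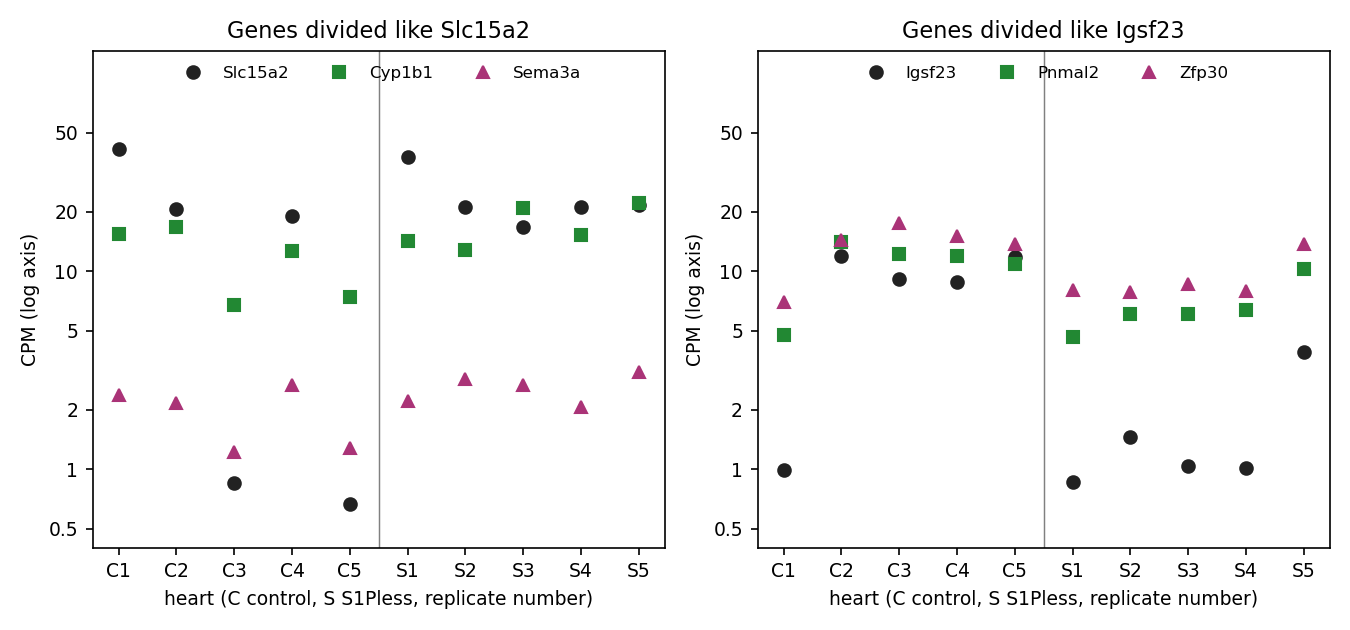
CPM on a log axis in each heart (C for control, S for S1Pless, with replicate number) for Slc15a2 with Cyp1b1 and Sema3a (left) and Igsf23 with Pnmal2 and Zfp30 (right), the genes that divide the hearts the same way with a gap of at least 0.5. Control replicates 3 and 5 are low in all 3 genes on the left, and control replicate 1 and S1Pless replicates 1 to 4 are low in all 3 on the right.

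The nearest genes on either side did not share either pattern. Of the 10 table genes closest to Slc15a2, 6 were tested. Fbxo40, a gene of skeletal and heart muscle, had 241 and 322 CPM in control replicates 3 and 5, within the range of the other hearts (180 to 333). Eaf2, the next gene on one side, had 1.70 and 1.79 CPM there, also within the range of the others (0.806 to 2.48). The widest gap among the 6 was 0.49, and none had the division of Slc15a2. Hcls1, an actin regulator of blood cells, was the only 1 called between genotypes: it rose 1.75-fold, from 10.2 to 12.5 CPM in controls to 14.0 to 28 in S1Pless hearts (edgeR adjusted p = 0.0180). Over all tested genes 3.72% were called, and without control replicate 4 the adjusted p of Hcls1 was 0.0521. Cd86, a costimulatory molecule of antigen-presenting cells, had a log2 fold change of 0.82 ± 0.24 and did not pass (adjusted p = 0.0809).

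Of the 10 table genes closest to Igsf23, 7 were tested and 0 were called, with adjusted p-values of 0.106 to 0.981 in edgeR's quasi-likelihood test and 2 genes, Bcl3 and Zfp111, at an unadjusted p below 0.05. Pvr, which encodes the poliovirus receptor and is the adjacent gene, had 30.3 to 42.0 CPM in controls and 30.0 to 37.3 in S1Pless hearts. Bcam, a laminin receptor of the immunoglobulin superfamily, had 169 to 256 and 172 to 231 CPM. Bcl3, an NF-kappaB regulator, was highest in S1Pless replicate 5 (15.3 CPM, against 4.03 to 9.11 in the other hearts). The widest gap among the 7 was 0.72, and none had the division of Igsf23.

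**Figure D4:**
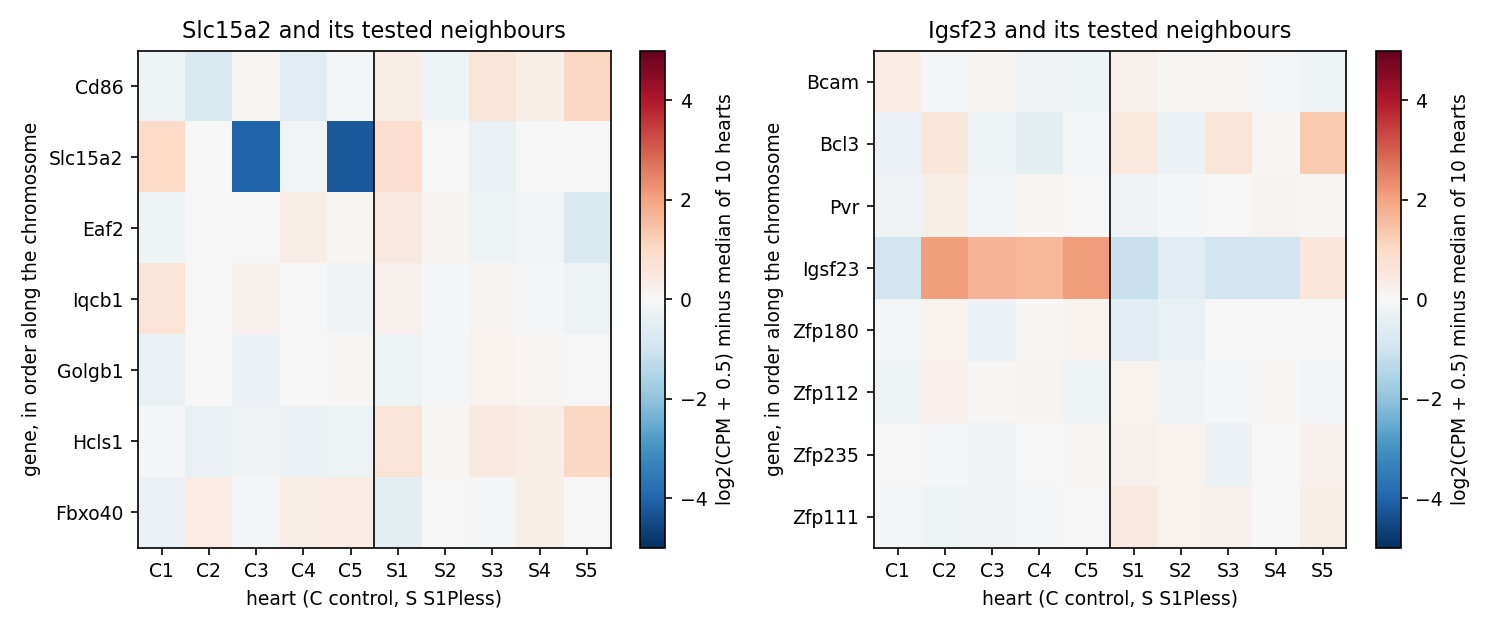
Level of Slc15a2 (left) and Igsf23 (right) with their tested neighbours in order along the chromosome, as log2(CPM + 0.5) minus the gene's median over the 10 hearts, in control (C) and S1Pless (S) hearts. Dark blue cells mark control replicates 3 and 5 in the Slc15a2 row, and no neighbour shows the same cells.

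Other peptide transporters did not follow Slc15a2. Slc15a1, the intestinal transporter PEPT1, had at most 1 read in any heart. Slc15a4 had 10.1 to 15.5 CPM in controls and 13.4 to 14.1 in S1Pless hearts (log2 fold change of 0.03 ± 0.11, edgeR adjusted p = 0.916), with 14.4 and 13.4 CPM in control replicates 3 and 5. Slc15a3 rose 1.77-fold, from 3.51 to 4.92 CPM in controls to 5.10 to 10.2 CPM in S1Pless hearts (adjusted p = 0.0228), and the groups did not overlap, as in 6.35% of all tested genes. Its call was lost without control replicate 2, 3 or 4 (adjusted p up to 0.0661).

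In a list of 30 genes of peptide transport, peptide breakdown, glutathione and sensing of bacterial muropeptides, 23 were tested, 4 were called higher and 0 lower. This is 17.4% of the tested members, and over all tested genes 3.40% were called higher. The median log2 fold change was 0.08. Besides Slc15a3, the called members were Nod2, the receptor for muramyl dipeptide (1.5-fold, edgeR adjusted p = 0.0461), Dpep1, a membrane dipeptidase (1.46-fold, adjusted p = 0.0454), and Ggt5, a gamma-glutamyl transferase (1.46-fold, adjusted p = 0.0303). These 3 calls were lost in 7, 8 and 6 of 10 fits that left out a heart (adjusted p up to 0.123, for Nod2). With RLE factors, another scaling, the adjusted p was 0.0535 for Nod2 and 0.0542 for Dpep1, and with the title series as a covariate it was 0.0697 for Nod2. Nod1 and Ripk2, the partner receptor and kinase, did not pass (log2 fold change of 0.13 ± 0.08 and 0.33 ± 0.14, adjusted p = 0.409 and 0.201). The widest gap of any tested member was 0.48.

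No tested relative of Igsf23 in the list read here shared its division of the hearts at a gap of 0.5 or more. In a list of 32 genes of the immunoglobulin superfamily and the nectins, 24 were tested, 2 were called higher and 0 lower. This is 8.33% of the tested members, beside 3.40% called higher over all tested genes, and the median log2 fold change was 0.16. Igsf6, a gene of myeloid cells, rose 2.21-fold, from 2.37 to 3.49 CPM in controls to 4.23 to 10.9 in S1Pless hearts (edgeR adjusted p = 0.0252). Nectin3, an adhesion molecule, rose 1.39-fold (adjusted p = 0.0330), from 8.44 to 11.2 CPM to 11.7 to 15.6 CPM. These calls were lost in 4 and 7 of 10 fits with a heart left out (adjusted p up to 0.0697 and 0.0956). In the fit with the title series as a covariate, Nectin3 also lost its call (adjusted p = 0.0557). The widest gap in the list was 1.00, in Igsf6, and it set S1Pless replicate 5 alone (10.9 CPM) above the other 9 hearts, which had 2.37 to 5.17 CPM. No gene of the list had a wide gap with 2 or more hearts on each side.

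Markers of other cell types were read in the same hearts. In whole-heart RNA, fewer cells of a type and less RNA per cell cannot be told apart. Of the 7 macrophage markers 2 were called higher, beside 3.40% of all tested genes. They summed to 247 to 314 CPM in controls and 387 to 970 in S1Pless hearts. The groups did not overlap in this sum, as in Slc15a3, Hcls1 and Igsf6, and its part in those results was not tested. Among all tested genes 6.35% did not overlap. Mesothelial markers, of which only 1 was tested and was called higher, did not overlap either. They summed to 6.7 to 9.27 CPM in controls and 9.79 to 15.7 in S1Pless hearts. For Slc15a2 the macrophage markers summed to 309 and 274 CPM in control replicates 3 and 5, within the range of the other controls. The 8 epithelial markers read, of 9 in the list, summed to 0.213 and 0.559 CPM in control replicates 3 and 5 and 0.316 to 1.14 CPM in the other hearts, with the lung gene Sftpc at 0 in all. Schwann cell and glia markers summed to 10.2 and 6.65 CPM in control replicates 3 and 5, within the range of the others (5.66 to 14.7). In control replicate 1, the control low in Igsf23, erythroid markers summed to 143 CPM, against 32.2 to 95.1 in the other controls and 73.9 to 172 in S1Pless hearts. Schwann cell markers were highest in that heart, at 14.7 CPM, followed by S1Pless replicate 1 at 12.5 CPM. T cell markers were also highest in this pair of hearts, at 4.93 and 5.24 CPM, against 0.98 to 3.46 in the other 8. The same hearts were the highest in Slc15a2 and the lowest in Igsf23. In T cell markers control replicate 1 lay within the range of the S1Pless hearts (2.7 to 5.24 CPM) and above the other controls (0.98 to 2.10 CPM), as its Igsf23 level lay with the S1Pless hearts. B cell markers did not go the same way in this pair. They were lowest in control replicate 1 (9.93 CPM) and 19.6 CPM in S1Pless replicate 1, against 10.8 to 21.3 in the other 8. Control replicate 1 was also the highest heart in smooth muscle and pericyte markers (1429 CPM, others 1028 to 1298). Among controls it was highest in endothelial and fibroblast markers (1909 and 872 CPM). The part of any of these cell types in either gene's level was not tested.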

How the data were processed

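TRIzol and RNeasy columns were used to extract RNA from hearts, which was made into stranded mRNA libraries, per the labels' protocols. The authors deposited raw read counts per Ensembl gene in 1 table. Per the submitters' processing notes, the tools were STAR 2.7.8a and featureCounts 2.0.1 and the build was GRCm39. The sources used here do not give the annotation release, the strand setting, the handling of multiply mapped reads or the choice of table genes.

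Symbols, chromosomes, gene order and exon lengths came from GENCODE M21 (GRCm38), so no gene coordinates are printed. The 12992 genes that passed filterByExpr (minimum count 10) were fitted with edgeR 4.0.16 in R 4.3.3 (TMM, robust quasi-likelihood, two-sided test, Benjamini-Hochberg adjustment, threshold 0.05), and standard errors are the log2 fold change over the square root of F. Gaps used log2(CPM + 0.5). Similar transcripts were sought with BLAST 2.17.0. Replicates were numbered in accession order. They are separate samples in the labels, and where they were not separate animals p-values measure only the spread between them. Both scripts were tested on simulated data. DESeq2 1.42.0 was an alternative.

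The members, lists and thresholds were chosen with earlier results of these data known. Named genes are the members, other genes with wide gaps or the same division, the 5 nearest table genes on either side, the Slc15 family and called list members. Gm4841, F830016B08Rik and S100a9, the genes named for an unadjusted p and those of the last observation were named after their values were seen. A further gene with a wide gap under the added filter is not reported here.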

Additional observations from a re-analysis of the deposited data

Results flagged for a closer look

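Groups of 5 hearts were searched for a heart far from the other 4 by Dixon's ratio (above 0.71). Of 76 groups, for the 38 tested genes that the text or the heatmap of neighbours names, 11 were marked. Chance marks about 1 in 20 groups, but 9 of the 11 marks fell on genes chosen for a wide gap or for a member's division of the hearts, so that rate does not apply to them. Slc15a2 was marked in S1Pless hearts for replicate 1 (37.9 CPM, others 16.7 to 21.5). The low pair of controls cannot be marked by this ratio, since 2 hearts lie together. Igsf23 was marked in both groups, in controls for replicate 1 (0.987 CPM, others 8.77 to 11.9) and in S1Pless hearts for replicate 5 (3.89 CPM, others 0.858 to 1.45). Zfp30 was marked for the same S1Pless replicate 5 (13.8 CPM, others 7.86 to 8.59). So was Igsf6 (10.9 CPM, others 4.23 to 5.17). Ripk2 was marked for control replicate 3 (7.56 CPM, others 6.48 to 6.78). Angptl4 was marked for control replicate 2 (17.3 CPM, others 4.69 to 7.08) and S1Pless replicate 3 (23 CPM, others 1.25 to 6.02). Csf2rb2 was marked for control replicate 2 (5.59 CPM, others 1.38 to 2.17), F830016B08Rik for control replicate 5 (13.0 CPM, others 0.806 to 3.82) and Gm4841 for S1Pless replicate 1 (25.3 CPM, others 1.00 to 7.40).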

How the results depend on the processing

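The division of the hearts by Slc15a2 was the same under every pseudocount, scaling and left-out heart tried, with a widest gap of 3.26 to 4.14, and no genotype difference passed in any of its 16 alternatives (log2 fold change of 0.22 to 1.20 with a heart left out, adjusted p of 0.431 to 0.901). The widest gap of Igsf23 was 1.17 to 2.25 with a heart left out. With a pseudocount of 1 it was 1.00 and set S1Pless replicate 5 on the low side. The call of Igsf23 held with RLE factors (log2 fold change of -2.38), library totals alone (-2.24) and DESeq2 (-2.39). It was lost with no filter (-2.37) and with the title series covariate (-2.61). The log2 fold changes with a heart left out ran from -2.98 to -2.19. An exact permutation of the hearts gave p = 0.0397 unadjusted for Igsf23 and 0.278 for Slc15a2 (two-sided, 252 arrangements, smallest possible p = 0.00794). Genes with a wide gap numbered 20 with a pseudocount of 0.1 and 5 with 1, 2 at a gap of at least 2, 5 with 3 or more hearts a side, and 8 to 19 with a heart left out (14 without control replicate 3, 19 without S1Pless replicate 3). Genes called between the groups numbered 1433 with library totals alone (1420 higher, 13 lower), which moved the median log2 fold change by 0.136. DESeq2 called 1019 (753 higher, 266 lower), and fits with a heart left out 126 to 589. The count was 278, 126, 131 and 237 without control replicates 2, 3, 4 and 5, and 288 and 239 without S1Pless replicates 1 and 5. The causes were not tested. No named call changed sign in any fit. No paired analysis was possible because the labels give the groups no shared replicate numbers, and do not say what the title numbers, some of them consecutive across groups, mean. The controls were littermates by the study design, but the labels do not say which animals shared a litter. Counts of 12 to 29 in the low hearts limit how finely those hearts can be ordered.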

Other observations

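A filter chosen after seeing the data, at least 10 counts in at least 2 hearts, admitted genes that only a few hearts express and gave 12 wide gaps among 13453 genes, with the 9 genes above among them. Of the further genes, 2 are described here, and neither divided the hearts exactly by genotype at its widest gap. Capn11, a calpain gene, had 118, 53, 0, 0 and 1 reads in control replicates 1 to 5 and 7, 71, 1, 0 and 1 in S1Pless replicates 1 to 5. The row of mt-Co2 had 6, 56, 109, 3 and 18 reads in control replicates 1 to 5 and 3, 3, 2, 2 and 1 in S1Pless replicates 1 to 5. In CPM the groups did not overlap (0.163 to 5.8 in controls and 0.0474 to 0.15 in S1Pless hearts). The lowest control and the highest S1Pless heart had 3 reads each. These counts are low for a mitochondrial gene in heart, and what this row measures is unsure. Neither shared the division of Slc15a2 or Igsf23.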
